A study of Homo sapiens with 4 samples.

Results

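The genes described here are the C/EBP family, CEBPA, CEBPB, CEBPD, CEBPE and CEBPG, together with GFI1, in U937 cells, a human leukemia line of monocytic type. They were taken by symbol, through the Ensembl identifiers of the deposited table, and 5 of the 6 named genes were found among 17656 listed genes. CEBPD was not analysed here. RNA from 2 sh-ZNF217-labelled libraries was compared with RNA from 2 libraries labelled NC. The labels describe the sh-ZNF217 libraries as U937 cells with ZNF217 knocked down (ZNF217 is a zinc finger partner of corepressors), and the NC libraries as U937 cells without treatment. The study's methods describe short hairpin RNAs delivered by lentivirus, a nontargeting control and also a CRISPR/Cas9 knockout of ZNF217 in this line. Its methods list the sequenced U937 samples as knockdown, whereas its results text calls the U937 RNA comparison a knockout. The labels do not say which of these constructs the NC cells carried. The column name of every library also holds D4, and those of the sh-ZNF217-labelled libraries hold ZNFS1. The labels explain neither D4 nor S1. Whether the libraries of a group are separate cultures is not said in the labels, so the p-values speak only of the variation among these samples, and that variation may be technical.

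C/EBP proteins are basic leucine zipper factors that bind DNA as dimers with each other or with related zipper proteins. In the bone marrow CEBPA commits progenitors to the granulocyte and monocyte lineage, CEBPE drives late granulocyte maturation, and CEBPB takes over in emergency granulopoiesis and in activated macrophages. GFI1 is a zinc finger repressor that recruits the demethylase KDM1A and histone deacetylases, silences monocyte genes and favours the granulocyte fate. The balance between these factors is therefore often called a switch between granulocytes and monocytes, and the questions put to the data were whether the transcripts of the switch factors differed between the groups and how the genes around them behaved.

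Levels are given in TPM, a share of all transcripts in a library that takes the length of each transcript into account. Fold changes are differences of mean log2(TPM + 1), labelled sh-ZNF217 minus NC, tested with limma over 14582 genes that reached 1 TPM in 2 libraries. A gene counted as changed when its Benjamini-Hochberg adjusted p was below 0.05, with a log2 change of more than 0.5 in either direction. Column sums were 998932 to 999282, and TPM does not preserve read numbers, so the depth was unknown and counting error could not be given an interval. The targeted transcript did not separate the groups by much. ZNF217 had 35.8 and 34.97 TPM in the sh-ZNF217-labelled libraries, against 36.1 and 36.7 TPM in NC, a log2 change of -0.04 (limma adjusted p = 0.74), so the group is called by its label throughout. U937 identity was checked with 9 marker genes. CD33, ITGB2, LYZ and PTPRC were present in all 4 libraries, while MPO, the myeloperoxidase of primary granules, was at or below 0.51 TPM in each. The markers were not level between the groups. Of 8 tested, 4 were called higher and 0 lower, with a median log2 change of 0.46, where 6.26% of all tested genes rose and 2.46% fell.

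The DNA just before the start sites of the members is shown first, because GFI1 alone among them carries letters that match the sites of both factor families. Windows of 250 bases before each RefSeq start (GRCh38.p14) were searched on both strands for the palindrome TTGCGCAA preferred by C/EBP dimers, for its relaxed form TTNCNNAA, which includes the palindrome, and for AATCNNNGC, which holds the AATC core bound by GFI1. The CEBPA window lies at chr19:33302535-33302784 (minus strand), directly before the single exon of the gene. The CEBPB window lies at chr20:50190580-50190829 (plus strand), also directly before its single exon. The first GFI1 window is at chr1:92486926-92487175 (minus strand), outside the gene, and the second, at chr1:92486100-92486349 (minus strand), precedes a start inside the gene. Capitals mark the matched letters.
CEBPA: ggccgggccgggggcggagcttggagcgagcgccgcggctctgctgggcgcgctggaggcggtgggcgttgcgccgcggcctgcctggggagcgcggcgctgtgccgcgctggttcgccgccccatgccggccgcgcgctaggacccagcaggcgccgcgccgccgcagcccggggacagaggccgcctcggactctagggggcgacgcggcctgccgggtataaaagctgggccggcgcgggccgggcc
CEBPB: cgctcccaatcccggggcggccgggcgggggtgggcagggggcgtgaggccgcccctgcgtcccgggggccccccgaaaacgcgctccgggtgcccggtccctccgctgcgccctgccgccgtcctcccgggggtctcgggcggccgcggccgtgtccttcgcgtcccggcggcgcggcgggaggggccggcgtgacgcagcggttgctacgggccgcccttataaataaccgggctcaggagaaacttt
GFI1, outer start: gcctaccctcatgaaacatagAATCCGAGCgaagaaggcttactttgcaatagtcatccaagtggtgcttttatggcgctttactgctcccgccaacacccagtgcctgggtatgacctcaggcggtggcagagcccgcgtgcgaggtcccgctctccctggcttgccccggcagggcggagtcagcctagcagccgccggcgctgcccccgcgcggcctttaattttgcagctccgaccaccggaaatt
GFI1, inner start: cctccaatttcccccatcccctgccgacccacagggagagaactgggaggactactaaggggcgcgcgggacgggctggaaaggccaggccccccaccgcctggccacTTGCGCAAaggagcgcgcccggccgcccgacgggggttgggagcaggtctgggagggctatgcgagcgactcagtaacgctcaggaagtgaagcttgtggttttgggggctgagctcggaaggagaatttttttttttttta
The palindrome TTGCGCAA stood in 1 of the 9 windows of the 5 members, that of the inner GFI1 start, 142 bases before it. It occurs in 46 of 35116 windows of the same length over all genes (0.131%). AATCNNNGC stood in 1 of the 9 windows, as AATCCGAGC before the outer GFI1 start, and in 9.65% of all windows. Neither set of letters was found in the CEBPA, CEBPB, CEBPE or CEBPG windows, which says only that these letters are not in these windows. The CEBPA and CEBPB windows were 81.2% and 77.6% G and C. A match of letters is a description and not evidence of binding.

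All 5 genes kept the same order of level in every library, with CEBPA highest, followed by CEBPB, GFI1, CEBPG and CEBPE. CEBPA ranked 557 of 17656 genes by mean TPM, CEBPB 1207, GFI1 1487, CEBPG 3658 and CEBPE 8886. Within each group the ranges of neighbours in this order did not overlap. Across groups they did for CEBPB and GFI1, since CEBPB in replicate 1 labelled sh-ZNF217 lay below GFI1 in both NC libraries.

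**Figure D1:**
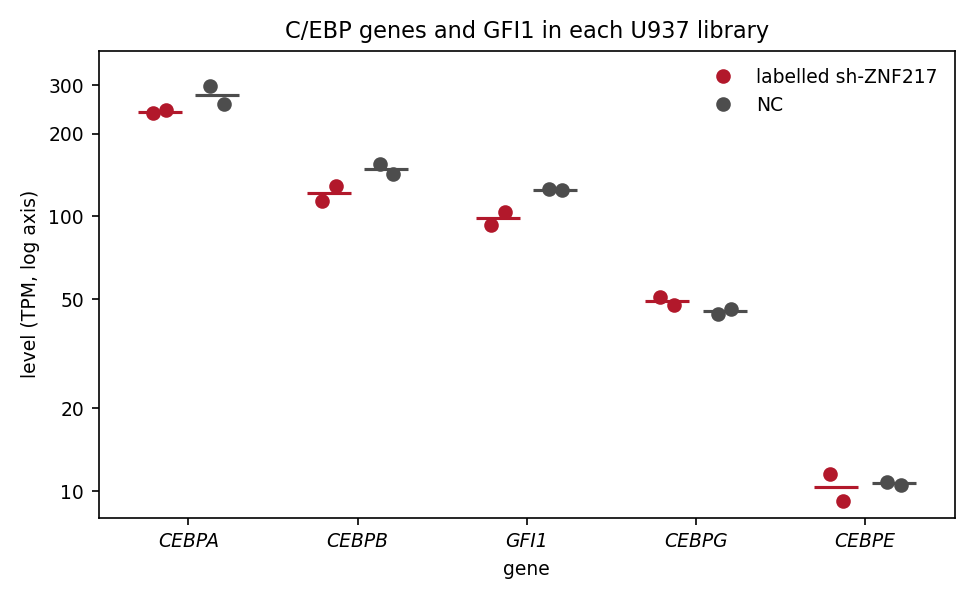
TPM (log axis) of each member in each library, with 1 point per library, sh-ZNF217-labelled libraries left of NC and a bar at each group mean (n = 2). The 5 genes span from about 10.4 TPM for CEBPE to 277 TPM for CEBPA, and the groups are apart for every gene but CEBPE.

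CEBPA, the factor that opens the granulocyte and monocyte lineage (ENSG00000245848, chr19:33299934-33302534, minus strand), had 237 and 243 TPM in the sh-ZNF217-labelled libraries, against 297 and 256 TPM in NC. Both values of the sh-ZNF217-labelled libraries lay below both NC values, and NC replicate 1 stood highest. In bulk RNA, fewer cells of a type and less RNA per cell cannot be told apart. The means were 240 ± 4.40 and 277 ± 29.2 TPM (SD, n = 2 each), a log2 change of -0.20 ± 0.08 (SE) with a 95% interval from -0.40 to just under 0 (limma adjusted p = 0.145). Leaving out NC replicate 1 brought the fold change to -0.092 (limma adjusted p = 0.457), and leaving out NC replicate 2 brought it to -0.307 (limma adjusted p = 0.0426). Exons of 2 genes on the other strand overlap CEBPA, and the sources used here do not give the strand setting of the counting. The one of these that was listed, ENSG00000267580, had 2.63 and 2.41 TPM in the sh-ZNF217-labelled libraries, against 3.47 and 2.30 TPM in NC. CEBPA-DT, the divergent transcript of the CEBPA promoter, was below 0.48 TPM in every library.

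CEBPB, the family member of activated macrophages (ENSG00000172216, chr20:50190830-50192668, plus strand), had 114 and 129 TPM in the sh-ZNF217-labelled libraries, against 155 and 143 TPM in NC. The groups did not overlap. Their means were 121 ± 10.6 and 149 ± 8.86 TPM (SD, n = 2 each), and the log2 change was -0.30 ± 0.08 (SE), with a 95% interval of -0.50 to -0.09, and it missed the threshold (limma adjusted p = 0.061). Its adjusted p ranged from 0.0367 with protein-coding genes only to 0.202 with the GC and length correction, and under no alternative did the fold change reach 0.5 in size. CEBPB-AS1, which overlaps its exon on the other strand, was at 0.20 to 0.42 TPM, far below CEBPB. CEBPB and ZNF217 lie on the same chromosome, 3374402 bases apart.

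CEBPE, the factor of late granulocyte maturation and secondary granule genes (ENSG00000092067, chr14:23117036-23120256, minus strand), was the lowest of the 5 genes. It had 11.5 and 9.19 TPM in the sh-ZNF217-labelled libraries, against 10.8 and 10.6 TPM in NC, so the NC values lay between the other 2. The log2 change was -0.05 ± 0.14 (SE), with a 95% interval of -0.40 to 0.31 (limma adjusted p = 0.844). Without replicate 2 labelled sh-ZNF217 it was 0.1 and without replicate 1 it was -0.197, so the direction rested on which library was kept.

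CEBPG, a short family member without an activation domain that acts through its dimer partners (ENSG00000153879, chr19:33373685-33382686, plus strand), was the only one with a positive fold change. It had 51.0 and 47.5 TPM in the sh-ZNF217-labelled libraries, against 43.9 and 46.2 TPM in NC. The groups were apart by a small margin (49.3 ± 2.47 and 45.1 ± 1.57 TPM, SD, n = 2 each), a log2 change of 0.13 ± 0.07 (SE, 95% interval -0.06 to 0.31, limma adjusted p = 0.286). CEBPG lies 71150 bases from CEBPA on chromosome 19. The fold changes of these neighbours had opposite signs, and neither passed the threshold.

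GFI1, the repressor of the set (ENSG00000162676, chr1:92473043-92486925, minus strand), showed the largest difference of the 5 genes. It had 93.3 and 104 TPM in the sh-ZNF217-labelled libraries, against 126 and 124 TPM in NC. All values of the sh-ZNF217-labelled libraries were below both NC values, which lay close together. The means were 98.5 ± 7.30 and 125 ± 1.20 TPM (SD, n = 2 each), a ratio of 0.788. The log2 change was -0.34 ± 0.07 (SE), with a 95% interval of -0.51 to -0.17 (limma adjusted p = 0.0294), and it was short of the minimum fold of 0.5, so GFI1 was not counted as changed. With 1 library left out the fold change was -0.267 to -0.417, and the limma adjusted p was above 0.05 each time: 0.102 without replicate 1 and 0.0554 without replicate 2 labelled sh-ZNF217, and 0.083 without NC replicate 1 and 0.0681 without NC replicate 2. No other annotated gene shares exon sequence with GFI1.

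Taken as a group, 0 of the 5 genes changed by limma, where 8.72% of all tested genes did, and 0 were called under any of the 14 alternatives. At an unadjusted p below 0.05 there were 3 of 5, against 34.4% of all genes, and at an adjusted p below 0.05 with any fold there was 1 of 5 (GFI1), against 16.9% (7.11% in the lower direction). The groups did not overlap for 4 of the 5 genes, 3 lower and 1 higher, where this held for 62.2% of all tested genes (28.6% lower and 33.5% higher). The median log2 change of the 5 was -0.20, against 0.02 over all genes. The intervals of CEBPA, CEBPE and CEBPG stayed inside a log2 change of 0.5 in either direction, while those of CEBPB and GFI1 reached it on the lower side. The granulocyte and monocyte switch named by these genes was thus not seen as a called change in any of the 5 transcripts at this number of libraries, which does not show that they were equal.

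Base composition moved with the fold changes and is given beside them. The longest annotated transcripts of CEBPA, CEBPB and CEBPE were 65.9%, 66.2% and 61.5% G and C, that of GFI1 50.6% and that of CEBPG 39.8%. Over all tested genes the median log2 change was -0.11 for 1725 genes of at least 60% GC and 0.09 for 5215 genes below 45% GC. After regression of each library on GC content and length, CEBPA stood at -0.037, CEBPB at -0.126, CEBPE at 0.085 and CEBPG at 0.035. GFI1 stood at -0.334 (limma adjusted p = 0.0314), close to its uncorrected value. The part of base composition in the CEBPA and CEBPB values was not tested.

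**Figure D2:**
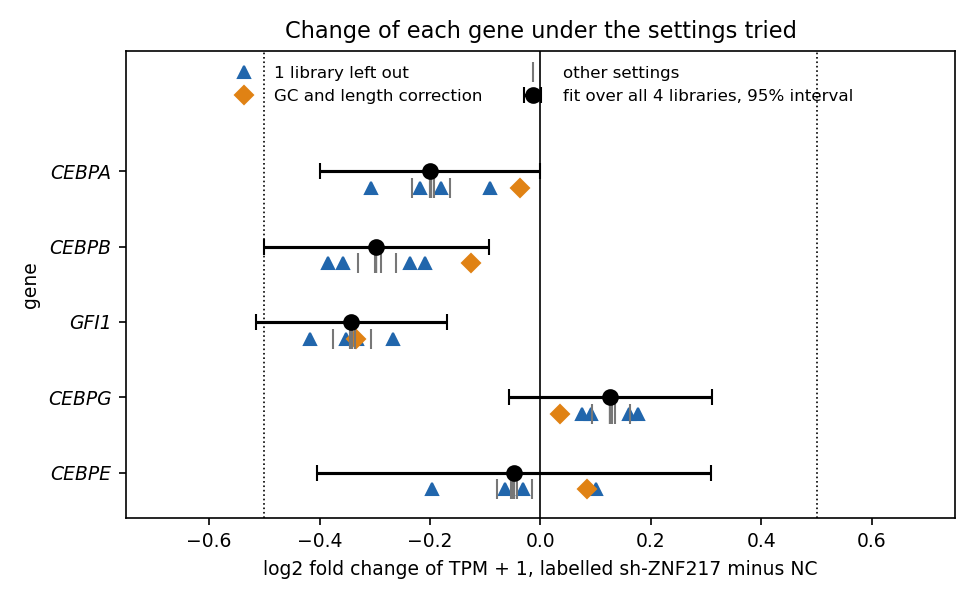
Log2 fold change of TPM + 1 (sh-ZNF217-labelled minus NC) of each member, with the 95% interval of the fit over all 4 libraries (black) and, below it, the value with 1 library left out (triangles), with GC and length correction (diamonds) and under the other settings (ticks). Dotted lines mark the minimum of 0.5 for a call. No point estimate crosses it, and CEBPA and CEBPB move towards 0 with the GC correction while GFI1 stays at -0.334.

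The make-up of the C/EBP pool was compared next, since dimers form according to what is present. The 4 family members together summed to 413 and 429 TPM in the sh-ZNF217-labelled libraries, against 507 and 455 TPM in NC. CEBPA made up 57.3% and 56.7% of that sum in the sh-ZNF217-labelled libraries, against 58.6% and 56.2% in NC, so its share overlapped between groups. CEBPB made up 27.5% and 30.03%, against 30.6% and 31.3% in NC. CEBPG made up 12.4% and 11.1% in the sh-ZNF217-labelled libraries, against 8.66% and 10.1% in NC. The groups did not overlap for the CEBPB and CEBPG shares, as for the levels of 62.2% of all tested genes. With the GC and length correction the log2 changes were 0.035 for CEBPG, -0.037 for CEBPA and -0.126 for CEBPB. The part of base composition in these shares was not tested. The ratio of CEBPB to CEBPG was 2.23 and 2.71 in the sh-ZNF217-labelled libraries, against 3.53 and 3.09 in NC, and that of CEBPA to GFI1 was 2.54 and 2.35, against 2.36 and 2.06 in NC. These shares and ratios are descriptions, because an exact two-sided permutation test of 2 against 2 libraries cannot give a p below 0.333.

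**Figure D3:**
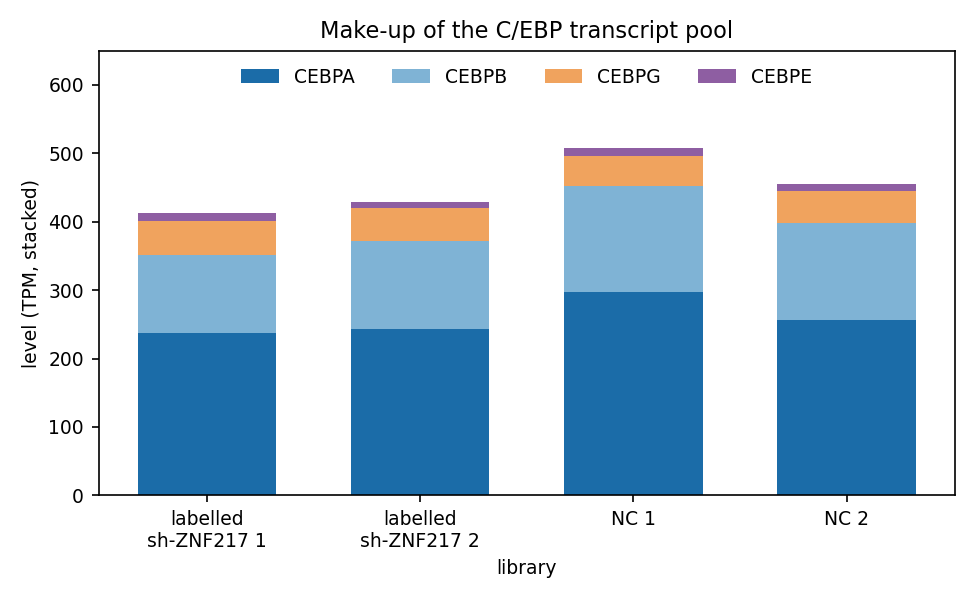
Stacked TPM of CEBPA, CEBPB, CEBPG and CEBPE in each library, sh-ZNF217-labelled libraries on the left and NC on the right. The pool is 413 and 429 TPM in the sh-ZNF217-labelled libraries, against 507 and 455 TPM in NC, and CEBPA makes up 56.2% to 58.6% of each.

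Several zipper proteins that can pair with C/EBP factors changed. Of 11 tested partners 5 were called higher and 0 lower, where 6.26% of all tested genes rose and 2.46% fell. The log2 change was positive for 6 and negative for 5 of the 11, with a median of 0.34. With the filter at 5 TPM, with median-of-ratios scaling and with protein-coding genes only, 1 partner was also called lower. DDIT3, also called CHOP, a stress-induced partner that keeps C/EBP dimers from their usual sites, had 28.8 and 34.4 TPM in the sh-ZNF217-labelled libraries, against 10.9 and 10.97 TPM in NC (log2 change 1.44 ± 0.12 SE, limma adjusted p = 0.00337). The ratio of CEBPA to DDIT3 was 8.24 and 7.07 in the sh-ZNF217-labelled libraries, against 27.2 and 23.3 in NC, where DDIT3 itself differed by a ratio of 2.88 and CEBPA by 0.868. DDIT3 shares exon sequence with ENSG00000285133 on the same strand and with MARS1 and MBD6 on the other, so its level carries that uncertainty. JUN, an AP-1 subunit that also pairs with CEBPA, had 105 and 115 TPM in the sh-ZNF217-labelled libraries, against 47.4 and 49.98 TPM in NC (log2 change 1.16 ± 0.07 SE, limma adjusted p = 0.00203). The calls of DDIT3 and JUN held in all 14 alternatives. ATF3, FOS and NFIL3 also rose, by 1.17, 0.60 and 0.74 on the log2 scale, and the group counted 2 changed genes without replicate 1 and 3 without replicate 2 labelled sh-ZNF217. ATF4, the stress response factor that pairs with CEBPG, had 277 and 306 TPM, against 360 and 383 TPM in NC, a log2 change of -0.35 (limma adjusted p = 0.026) that was short of the minimum fold.

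Proteins that control the amount or the isoforms of C/EBP protein were looked at in the same way. None of 12 tested was called by limma, against 8.72% of all tested genes, 4 of the 12 were at an unadjusted p below 0.05, against 34.4% of all genes, and the median log2 change was 0.07. Over the 14 alternatives at most 1 was called, and without NC replicate 1 that 1 was lower. GSK3B, a kinase that phosphorylates C/EBP proteins, passed the p threshold but not the minimum fold, at 35.1 and 34.1 TPM in the sh-ZNF217-labelled libraries, against 26.8 and 27.5 TPM in NC (log2 change 0.34, limma adjusted p = 0.0366). TRIB1, a pseudokinase that brings CEBPA to the ubiquitin ligase COP1 for breakdown, passed the minimum fold but not the p threshold. TRIB1 had 3.38 and 4.12 TPM in the sh-ZNF217-labelled libraries, against 1.87 and 1.64 TPM in NC (log2 change 0.78 ± 0.21 SE, limma adjusted p = 0.0552), and it passed with protein-coding genes only and with the GC correction. COP1 itself had 63.1 and 64.0 TPM, against 53.3 and 57.6 TPM in NC (log2 change 0.19, limma adjusted p = 0.115). Protein amounts were not measured in these files.

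For GFI1, partners and repressed genes were listed separately. Of 14 tested partners 1 rose and 0 fell, where 6.26% of all tested genes rose and 2.46% fell, with a median log2 change of -0.08. The one that rose was RUNX1T1, a corepressor, at 13.6 and 14.4 TPM in the sh-ZNF217-labelled libraries, against 7.67 and 6.91 TPM in NC (log2 change 0.85), and its call was lost without replicate 1 (count of 0) and without replicate 2 labelled sh-ZNF217 (limma adjusted p up to 0.0688). KDM1A, the demethylase that GFI1 recruits, had 85.8 and 88.2 TPM in the sh-ZNF217-labelled libraries, against 104 and 102 TPM in NC, a log2 change of -0.24 (limma adjusted p = 0.0408) that was short of the minimum fold. PRMT1, an arginine methyltransferase that binds GFI1, had 227 and 243 TPM in the sh-ZNF217-labelled libraries, against 339 and 319 TPM in NC, a log2 change of -0.49 (limma adjusted p = 0.0094) that was just short of the minimum fold. It passed with median-of-ratios scaling and without NC replicate 2, where the partner count was 2, and without replicate 2 labelled sh-ZNF217, where it was the 1 partner called. KDM1A and GFI1 were thus both lower in the sh-ZNF217-labelled libraries, each by less than the fold required for a call. Of the 14 tested partners 6 had a positive and 8 a negative log2 change, so the partners did not move as a set. KDM1A stood at -0.263 to -0.223 with 1 library left out.

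Genes that GFI1 is known to repress did not move in a single direction. Of 12 tested 4 rose and 3 fell, where 6.26% of all tested genes rose and 2.46% fell. The median log2 change of the 12 was 0.18. CDKN1A, the cell cycle inhibitor p21, had 73.7 and 77.2 TPM in the sh-ZNF217-labelled libraries, against 39.9 and 41.8 TPM in NC (log2 change 0.87 ± 0.07 SE, limma adjusted p = 0.00324), and was called in all 14 alternatives. CDKN2B, CSF1R and EGR2 rose by 1.68, 0.79 and 1.54, and ELANE, ID1 and IRF8 fell by 0.79, 0.72 and 0.76, all on the log2 scale. EGR2 had 2.77 and 4.17 TPM in the sh-ZNF217-labelled libraries, against 0.94 and 0.18 TPM in NC. It thus passed the filter only through the sh-ZNF217-labelled libraries, and its call was lost in several alternatives, such as plain empirical Bayes moderation. Without replicate 1 and without replicate 2 labelled sh-ZNF217 the count was 1, CDKN1A. SPI1 (PU.1), which drives the monocyte fate and which GFI1 opposes, had 353 and 356 TPM in the sh-ZNF217-labelled libraries, against 316 and 336 TPM in NC (log2 change 0.12, limma adjusted p = 0.169). The ratio of SPI1 to GFI1 was 3.78 and 3.44 in the sh-ZNF217-labelled libraries, against 2.51 and 2.71 in NC. The groups did not overlap, which also held for 62.2% of all tested genes taken singly, SPI1 and GFI1 among them.

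Listed fate factors and granule genes downstream of the switch differed by group. Not every product in the granule lists is a protein stored in granules. Beside the counts below, 6.26% of all tested genes rose and 2.46% fell. Some genes stand in more than 1 list, so these counts are not independent of those of the GFI1-repressed genes. EGR2, low in NC, is counted again among the fate factors that rose, and IRF8 as the one that fell. ELANE is counted again among the primary granule genes that fell, and CSF1R among the receptor genes that rose. Of 12 tested monocyte fate factors 3 rose and 1 fell, with a median log2 change of 0.14, and the number changed was 2 without replicate 1 and 1 without replicate 2 labelled sh-ZNF217, and 1 with plain empirical Bayes moderation. TFEC rose and was called in all 14 alternatives (log2 change 1.37, limma adjusted p = 0.00143). IRF8, an interferon regulatory factor needed for monocyte formation, was the one that fell, with 128 and 142 TPM in the sh-ZNF217-labelled libraries, against 197 and 266 TPM in NC (limma adjusted p = 0.0254), and its call was lost without replicate 1 and without replicate 2 labelled sh-ZNF217 and with plain moderation. Among 10 factors of early myeloid cells 2 fell, MYC and MYB. Among 12 genes of primary granules, the first granules made under CEBPA, 6 fell and 1 rose, with a median of -0.40. PRTN3, a serine protease of these granules, had 69.2 and 73.5 TPM in the sh-ZNF217-labelled libraries, against 186 and 191 TPM in NC (log2 change -1.39 ± 0.06 SE, limma adjusted p = 0.00077). The granule protease CTSG fell by 0.67 on the log2 scale, and both calls held in all 14 alternatives, while the group counted 3 changed genes without replicate 2 labelled sh-ZNF217. LYZ, lysozyme, was the one that rose, at 5511 and 5328 TPM in the sh-ZNF217-labelled libraries, against 3270 and 3256 TPM in NC (log2 change 0.73). Monocytes and macrophages also make LYZ. Among 7 tested genes of secondary and tertiary granules, the program of CEBPE, 2 rose (HP and PADI4) and 1 fell (CEACAM8), and the count was 0 without replicate 1 and without replicate 2 labelled sh-ZNF217 and 1 without NC replicate 2.

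Receptor genes and target genes that C/EBP factors are known to activate were counted in the same way, beside 6.26% risen and 2.46% fallen among all tested genes. Among 11 tested receptor genes 4 rose and 0 fell (CSF1R, CSF2RA, FPR1 and IL6ST), a count that was 0 without replicate 1 and without replicate 2 labelled sh-ZNF217 and 2 without NC replicate 2. CSF3R, the receptor for granulocyte colony-stimulating factor and a textbook CEBPA target, had 26.3 and 25.2 TPM in the sh-ZNF217-labelled libraries, against 22.1 and 22.9 TPM in NC (log2 change 0.19, limma adjusted p = 0.174). Among 10 tested inflammatory and acute phase genes 7 rose and 0 fell, with a median log2 change of 1.06. CXCL8, a neutrophil chemokine, had 478 and 466 TPM in the sh-ZNF217-labelled libraries, against 146 and 147 TPM in NC (log2 change 1.68 ± 0.05 SE, limma adjusted p = 0.000329). IL1B, C3 and CCL2 rose by 2.52, 1.41 and 0.65 on the log2 scale, and all 4 calls held in the 14 alternatives. Among 5 tested adipocyte targets 4 rose (CD36, FABP4, PLIN2 and PPARG), and PLIN2, a coat protein of lipid droplets, had 381 and 380 TPM, against 114 and 119 TPM in NC (log2 change 1.70). PPARG lost its call without replicate 1 and without replicate 2 labelled sh-ZNF217 and with plain empirical Bayes moderation (limma adjusted p up to 0.0717). These genes have regulators other than C/EBP factors, whose part was not tested.

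**Figure D4:**
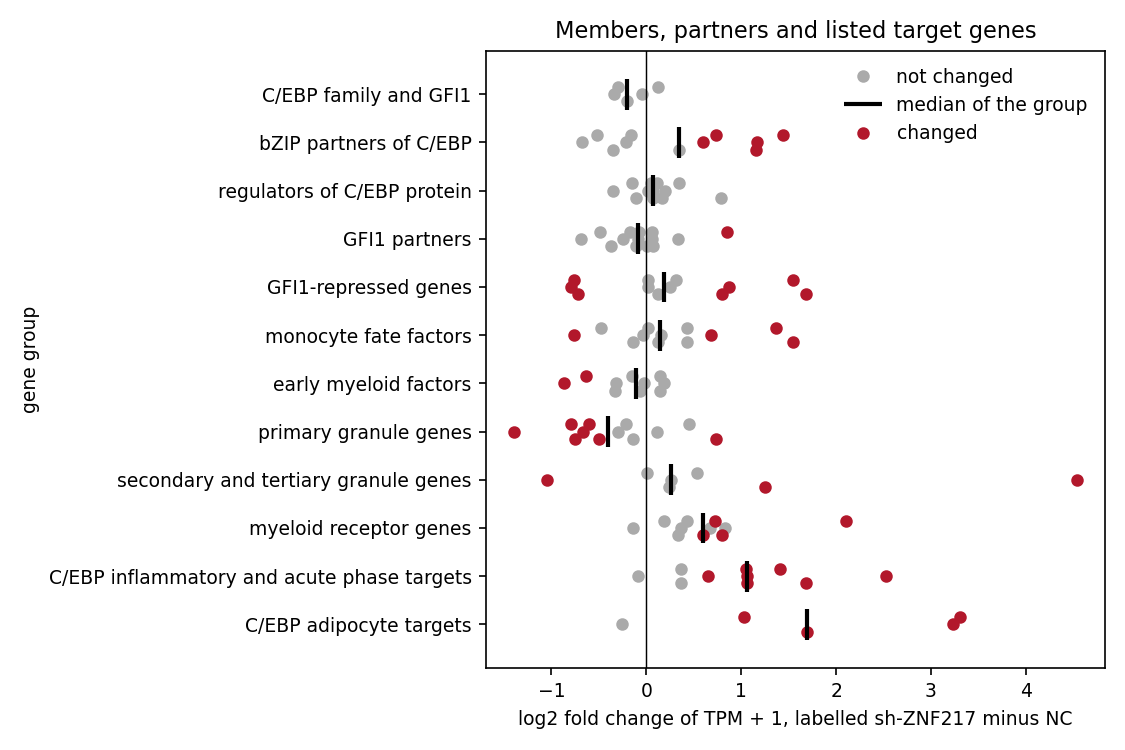
Log2 fold change of TPM + 1 (sh-ZNF217-labelled minus NC) of each tested gene by group, with changed genes in red, others in grey and a bar at the median of the group. The C/EBP and GFI1 transcripts lie between -0.34 and 0.13 with 0 called, whereas the inflammatory and acute phase group has 7 of 10 called and a median of 1.06, and the primary granule group 6 fallen genes and a median of -0.40. Of all tested genes 6.26% rose and 2.46% fell.

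Matches to the relaxed C/EBP letters stood both before genes that fell and before genes that rose, as the following stretches of 30 bases from the same RefSeq windows (GRCh38.p14) show, chosen after the values were seen, with the matched letters in capitals. The PRTN3 stretch is at chr19:840926-840955 (plus strand), the AZU1 stretch at chr19:827715-827744 (plus strand), the PTX3 stretch at chr3:157436683-157436712 (plus strand) and the RNASE2 stretch at chr14:20955331-20955360 (plus strand).
PRTN3: cagcctgggcaTTGGGCAActcaacggcct
AZU1: cggtggaggccTTGGGCAAtttcccgtgtt
PTX3: gcggtttaataTTGTGCAActtccacattt
RNASE2: aaaaaggatgaTTGCACAAgtggactatgt
PRTN3 and AZU1, neighbouring primary granule genes of the serine protease family, share the same 8 letters, and both fell. AZU1 fell by 0.75 on the log2 scale, with a call that was lost without replicate 2 labelled sh-ZNF217, without NC replicate 2, with plain empirical Bayes moderation and with the GC and length correction (limma adjusted p up to 0.0802 over the 14 alternatives). PTX3, a secreted pattern recognition protein, rose by 1.06 on the log2 scale and held its call in all 14 alternatives, whereas RNASE2, a granule ribonuclease, had a log2 change of 0.11 (limma adjusted p = 0.188). The relaxed letters stood in 6 of 9 windows of primary granule genes and 9 of 17 windows of inflammatory and acute phase genes, and in 33.2% of all windows. They stood in 8 of 14 windows of receptor genes and 11 of 19 of monocyte and macrophage markers. In other groups they were in 5 of 14 windows (adipocyte targets), 1 of 5 (secondary and tertiary granules), 4 of 14 (GFI1-repressed genes) and 4 of 17 (bZIP partners). Windows of the same gene can overlap, so a match can be counted again, as for S100A8. Windows were found for 9 of the 14 listed primary granule genes, and not for ELANE or LYZ. The windows also differed in G and C content, such as 40.0% for IL1B and 64.8% for AZU1. The part of base composition in these window shares was not tested.

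Markers of other cells and of maturation were read beside these groups, again against 6.26% risen and 2.46% fallen among all tested genes. Of 12 tested monocyte and macrophage markers 8 rose and 0 fell (5 without replicate 1 and without replicate 2 labelled sh-ZNF217, and 5 without NC replicate 2), and their summed level was 1189 and 1319 TPM in the sh-ZNF217-labelled libraries, against 641 and 586 TPM in NC. FCGR3A, 1 of the 8 that rose, had 2.82 and 1.98 TPM in the sh-ZNF217-labelled libraries, against 0.52 and 0.34 TPM in NC. It passed the filter only through the sh-ZNF217-labelled libraries. CD14 was at 1.73 and 2.79 TPM, against 0.76 and 0.86 TPM in NC. The part of cell maturation in the target groups was not tested. The eosinophil, basophil and mast cell list summed to 1653 and 1854 TPM in the sh-ZNF217-labelled libraries, against 1347 and 1302 TPM in NC, nearly all of it TPSAB1, which has a near-identical copy in TPSB2, while MS4A2 was below 1 TPM. The T and NK list summed to 102 and 113 TPM, against 87.1 and 70.1 TPM in NC, nearly all of it NKG7. CD2, a T cell surface protein, was the 1 of 3 tested that rose, with 3.77 and 5.33 TPM in the sh-ZNF217-labelled libraries, against 1.12 and 1.68 TPM in NC (limma adjusted p = 0.0308), and its call was lost without replicate 1 and without replicate 2 labelled sh-ZNF217, without NC replicate 1 and with plain empirical Bayes moderation. PAX5, the B cell factor, was the 1 of 4 tested B cell markers that fell, with 1.87 and 1.79 TPM in the sh-ZNF217-labelled libraries, against 3.72 and 4.13 TPM in NC (limma adjusted p = 0.0458), and its call was lost when any 1 library was left out. The B cell, erythroid and megakaryocyte, and epithelial and fibroblast lists summed to at most 12.5, 6.31 and 1.40 TPM in any library.

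Among the tested genes within 250 kb of a member, limma called 1, LRP10, which is 1 of 14 tested around CEBPE (6.26% of all tested genes were called higher) and was higher, at 19.3 and 21.96 TPM in the sh-ZNF217-labelled libraries, against 11.8 and 12.1 TPM in NC (log2 change 0.74, limma adjusted p = 0.0137), a call lost without replicate 1 and without replicate 2 labelled sh-ZNF217 (limma adjusted p up to 0.0696) and a gene named after its values were seen.

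Genes with the pattern most like each member over the 4 libraries were found by the Euclidean distance of log2(TPM + 1), centred on each gene's mean, among 9993 candidates with a symbol and a mean of at least 5 TPM. They were UROD, GPALPP1 and NDUFA6 for CEBPA, SIGLEC17P, C19orf53 and TGFB1 for CEBPB, FAH, BTBD10 and CCDC25 for CEBPE, ZNF407, PPM1K and STOM for CEBPG, and UCP2, WARS2 and POLDIP2 for GFI1, at distances of 0.00725 to 0.0331. With 4 libraries such closeness is common. Between 86 genes for CEBPE and 557 genes for CEBPG lay within a distance of 0.1 of a member.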

How the data were processed

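Trizol RNA of U937 cells was sequenced from Illumina TruSeq libraries per the labels, 2 labelled sh-ZNF217 and 2 labelled NC. The authors filtered reads and aligned them with HISAT2 (2.0.5, hg38, per the submitters' processing notes). The authors called their measure FPM, but the deposited values behave as TPM (near-equal column sums, divided by length). The quantifier, annotation and strand setting were not found in the sources used here, and depth is unknown. The authors tested genes with DESeq2, which needs counts and could not be used here.

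Identifiers were named and placed with GENCODE 44 (hg38). limma 3.58.1 (R 4.3.3, trended robust empirical Bayes, group alone) was fitted to log2(TPM + 1) of 14582 genes with at least 1 TPM in 2 libraries, leaving out 3074. The pseudocount of 1 understates the change of low genes. Some low genes, such as EGR2 and FCGR3A, passed the filter only through the sh-ZNF217-labelled libraries. Fold and p thresholds were 0.5 and 0.05. The 14 alternatives changed the pseudocount, filter, scaling, gene set, moderation, GC and length, the block or the libraries. The procedure was tested on simulated data. Genes and lists were chosen with earlier results of these data known. Named genes were the members, ZNF217, up to 4 changed genes per list with the smallest p and 3 genes of nearest pattern per member, and others named in the text (NFIL3, ATF4, GSK3B, TRIB1, COP1, KDM1A, PRMT1, SPI1, CSF3R, AZU1, ID1, RNASE2, CD14 and marker genes) were chosen after their values were seen. Some results on single listed genes are not reported here. Promoter windows came from RefSeq (GRCh38.p14). Python 3.11.15 with matplotlib 3.10.9 drew the figures.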

Additional observations from a re-analysis of the deposited data

How the results depend on the processing

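Of 70 values of the 5 members under 14 alternatives, 2 changed sign, both of CEBPE, at 0.085 with GC and length correction and 0.1 without replicate 2 labelled sh-ZNF217 (CEBPE was -0.197 to 0.1 with 1 library left out), and 0 were called changed. The number of changed genes was 1272 over all genes, 723 with plain empirical Bayes moderation (665 of them among the 1272) and 430 to 1029 with 1 library left out. With plain moderation the bZIP partners counted 3 changed genes in place of 5 and the primary granule genes 4 in place of 7. Among the listed genes 53 were changed, and 25 to 47 with 1 library left out. Without replicate 1 labelled sh-ZNF217, all 27 listed genes called were among the 53. The scaling alternatives moved the median of all genes by less than 0.1 on the log2 scale.

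The deviations of same-numbered libraries from their group means had a correlation across genes of -0.00534. A value this small does not show whether same-numbered libraries were handled together, so a fit with the replicate number as a block was also run. With the replicate block 1049 genes changed, 1003 of them also without it, and 0 of the members. GFI1 stood at a limma adjusted p of 0.0484, CEBPB at 0.095 and CEBPA at 0.159 in that fit.

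The members rest on 2 libraries a group with no read counts. Genes that share exon sequence with another gene (among those named CEBPA, CEBPB, DDIT3, RUNX1T1, PRMT1, GSK3B, CDKN1A, EGR2, MYC, MYB, LYZ, IL6ST, C3, PTX3 and PAX5) have uncertain levels.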
